A study of Mus musculus with 2 samples.

Results

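Vacuolar proton pump genes, and genes of the hydrolases and membrane proteins of the lysosome, were followed in lung conventional dendritic cells. The members were 40 of the 31053 genes in the count matrices: 25 whose symbol starts with Atp6v or Atp6ap, and 15 lysosomal genes listed by name. By role they comprised 13 subunits of the V1 sector of the pump, 9 of its V0 sector, 3 accessory proteins, 8 hydrolases (Hexa, Gla, Lipa, Asah1, Neu1, Glb1, Man2b1 and Naaa), 6 genes of lysosomal membrane and transport (Lamp1, Lamp2, Scarb2, Npc1, Npc2 and Mcoln1) and the regulator Tfeb. The data were 2 droplet libraries from the lungs of C57BL/6 mice aged 8 to 10 weeks in steady state. Cells were freed with dispase and sorted by flow cytometry, 1 library holding the XCR1-positive cells (the cDC1 sort) and 1 the CD172a-positive cells (the cDC2 sort), and no treatment or allele is named. The sources used here do not say how many mice lie behind each library, and with 1 library per sort no test between groups was possible.

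The vacuolar ATPase acidifies endosomes and lysosomes. Its cytosolic V1 sector hydrolyses ATP and turns a rotor, and its membrane V0 sector carries protons across the membrane through the a subunit and a ring of c subunits. The acid pH activates lysosomal hydrolases, and in dendritic cells the acidity of these compartments sets how fast internalised antigen is broken down. Tfeb is a transcription factor that drives many lysosomal genes, and it binds a motif built around the letters CACGTG.

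The letters CACGTG were searched in the promoters of the members because Tfeb binds motifs of this core. The stretches of 100 bases just before the start are shown for Lamp1, Npc2, Man2b1 and Naaa, which the results turn on. They are also shown for Mcoln1, Atp6v0b and Glb1, which hold the letters. Other members past 2-fold in a comparison, such as Atp6v0a1, Gla and Lipa, are not shown. The stretches come from RefSeq promoters on GRCm38.p6, which span 250 bases before to 50 after each start and held 36 promoters of 31 members. CACGTG reads the same on both strands. Capitals mark its copies, and each sequence runs 5′ to 3′ on the strand of its gene.
Lamp1: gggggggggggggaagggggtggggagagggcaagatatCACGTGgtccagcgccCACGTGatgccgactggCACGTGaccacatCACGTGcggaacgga
Mcoln1: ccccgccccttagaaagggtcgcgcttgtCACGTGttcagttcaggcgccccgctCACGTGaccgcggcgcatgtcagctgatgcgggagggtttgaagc
Atp6v0b: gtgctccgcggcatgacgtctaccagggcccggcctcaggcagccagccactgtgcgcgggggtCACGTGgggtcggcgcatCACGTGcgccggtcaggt
Glb1: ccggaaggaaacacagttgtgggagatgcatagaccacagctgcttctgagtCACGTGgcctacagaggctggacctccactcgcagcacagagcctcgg
Npc2: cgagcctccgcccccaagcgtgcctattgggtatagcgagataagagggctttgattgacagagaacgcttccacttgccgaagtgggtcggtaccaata
Man2b1: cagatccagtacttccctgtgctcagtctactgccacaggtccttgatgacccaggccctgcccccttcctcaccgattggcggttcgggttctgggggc
Naaa: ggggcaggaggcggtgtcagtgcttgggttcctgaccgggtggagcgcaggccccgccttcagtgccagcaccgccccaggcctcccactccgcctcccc

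These stretches lie at chr8:13159061-13159160 on the + strand (Lamp1), chr8:3500419-3500518 on the + strand (Mcoln1), chr4:117887330-117887429 on the - strand (Atp6v0b), chr9:114400978-114401077 on the + strand (Glb1), chr12:84773113-84773212 on the - strand (Npc2), chr8:85083169-85083268 on the + strand (Man2b1) and chr5:92278182-92278281 on the - strand (Naaa). The Lamp1 promoter held 4 copies, beginning 61, 45, 28 and 15 bases before the start. Mcoln1 held 2 copies at 71 and 45 bases before the start, Atp6v0b held 2 at 36 and 18 bases, and Glb1 held 1 at 48 bases. Gla held 2 copies farther out, at 227 and 194 bases, and Atp6v1a, Atp6v0d1 and Atp6v0e held 1 each. In all, 8 of the 36 member promoters (22.2%) held the letters, against 2349 of 32851 promoters of the same length (7.15%). The 8 letters GTCACGTG, searched on both strands and containing CACGTG, were in 6 member promoters (16.7%), against 2.25% of all. An exact copy of the longer palindrome known as the CLEAR motif, which contains both shorter strings, was in 0 member promoters and in 0.326% of all promoters. Inexact matches to this palindrome were not searched, so the 0 does not show that the members lack the motif. No copy of CACGTG was present in these windows of Npc2, Man2b1 or Naaa.

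The deposited matrices held 2939 barcodes for the cDC1 sort and 3045 for the cDC2 sort, of which 2574 and 2835 passed the cell filter with 35071861 and 38613693 unique molecular identifiers (UMIs, each counting 1 captured transcript). The median cell carried 12866 and 12655 UMIs. The sort genes followed the labels, with Xcr1 at 248 against 4.84 CPM (a gene's UMIs on the scale of a common total) and Sirpa at 5.62 against 123 CPM in the cDC1 and cDC2 sorts. In the matrices 6 barcode sequences occurred in both libraries, and 5 of these were kept in both. Marker gates found 22 cells of other kinds (B, NK or T cells, neutrophils, fibroblasts) in the cDC1 sort and 77 in the cDC2 sort. Bracketed ranges are 95% intervals of counting error and do not cover variation between cells, mice or sorts. A difference counts as higher or lower at 2-fold, which is a rule of size and not a test.

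Cells were also split by state. Mature cells, which have taken up the migratory programme of dendritic cells, were those with at least 3 UMIs of the actin bundling gene Fscn1. They numbered 84 in the cDC1 sort (3.26%, 2.61 to 4.02) and 74 in the cDC2 sort (2.61%, 2.06 to 3.27). Only 5 and 14 cells lay just inside the gate at 3 or 4 UMIs, while 67 and 108 lay just outside it at 1 or 2 UMIs. Markers that the gate did not use followed the label: Ccr7, the chemokine receptor that guides mature cells to lymph nodes, stood at 3473 CPM in mature and 119 CPM in other cells of the cDC1 sort, and at 3409 and 658 CPM in the cDC2 sort. Cacnb3, also known from mature dendritic cells, stood at 483 against 4.98 CPM and at 427 against 2.38 CPM.

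Macrophage-panel cells had at least 10 UMIs over a panel of 8 macrophage and monocyte genes, among them C1qa, C1qb, C1qc, F13a1, Fn1, Retnla and Lpl, with at least 3 of the 8 seen, and under 3 UMIs of Fscn1. There were 162 in the cDC2 sort (5.71%, 4.89 to 6.63) and 12 in the cDC1 sort. In the cDC2 sort 32 of them lay just inside the gate at 10 to 19 UMIs, and 95 cells lay just outside it at 5 to 9 UMIs. Markers outside the panel included those of macrophages and of cDC2, so the cells are named by the panel and not as macrophages. Against other cells of the cDC2 sort, Lyz2 stood at 7889 and 733 CPM, Adgre1 at 79.6 and 34.0 CPM, and the dendritic cell gene Zbtb46 at 26.3 and 65.4 CPM. Apoe stood at 54.8 and 20.8 CPM, Ear2 at 1148 and 180 CPM, and Flt3, the growth factor receptor of dendritic cells, at 15.9 and 86.1 CPM. The macrophage receptors Fcgr1 and Mertk were low in both, at 1.85 and 1.40 CPM and at 4.07 and 0.0859 CPM. The cDC2 genes were split. The lectin gene Mgl2 stood at 1118 and 1519 CPM, Cd209a at 461 and 826 CPM and Clec10a at 71.5 and 151 CPM. Sirpa stood at 211 and 115 CPM and Itgam at 274 and 141 CPM. The alveolar macrophage genes listed with Ear2 were low in both. Chil3 stood at 13.7 and 1.26 CPM, Ear1 at 0.370 and 0.315 CPM, Marco at 0.370 and 0.630 CPM, and Fabp1 at 0 and 0.286 CPM. The cells outside both gates, called other cells here, numbered 2478 and 2599.

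Most of the pump was measured. Except for the a subunit, whose UMIs were spread over several genes, 1 isoform of each subunit carried nearly all UMIs. At a floor of 10 CPM in at least 1 library, 29 of the 40 members were measured: 13 of 22 pump subunits, 2 of 3 accessory genes and 14 of the 15 listed lysosomal genes. Levels counted at 3′ ends do not scale with transcript length. On that scale the highest pump subunits were the small V0 subunit gene Atp6v0e at 341 CPM in the cDC1 and 302 CPM in the cDC2 sort, the peripheral stalk gene Atp6v1g1 at 228 and 235 CPM, the proteolipid gene Atp6v0b at 196 and 206 CPM, and the rotor gene Atp6v1f at 168 and 180 CPM. Atp6v1a, which encodes the catalytic subunit, stood at 64.0 and 102 CPM, and Atp6v1b2, its nucleotide-binding partner, at 45.2 and 48.7 CPM. Npc2, which hands cholesterol to Npc1 inside the lysosome, was the highest of the 40 in the cDC2 sort at 527 CPM, and stood at 440.4 CPM in the cDC1 sort.

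The unmeasured pump genes were mainly isoforms of other tissues. Atp6v1b1, known from the acid-secreting cells of the kidney, Atp6v1g3 and the accessory gene Atp6ap1l had 0 UMIs in both libraries, which allows up to 0.0855 and 0.0777 CPM at 3 counts. Atp6v0a4 had 0 and 2 UMIs, Atp6v1e2 had 0 and 1, Atp6v1c2 had 4 and 1, and Atp6v0d2, known from osteoclasts and alveolar macrophages, had 8 and 6. The brain isoform Atp6v1g2 had 25 and 26 UMIs and Atp6v0e2 had 6 in each. Atp6v0c, the gene of the main proteolipid of the proton ring, was listed at 4.62 and 8.21 CPM from 162 and 317 UMIs, far below Atp6v0b, its close relative. GENCODE places 2 processed pseudogenes of Atp6v0c in the genome, the sources used here do not say how shared reads were counted, and its level is uncertain. Mcoln1, the lysosomal calcium channel gene, had 225 and 356 UMIs (6.42 and 9.22 CPM), and Tfeb 367 and 524 UMIs (10.5 and 13.6 CPM).

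**Figure D1:**
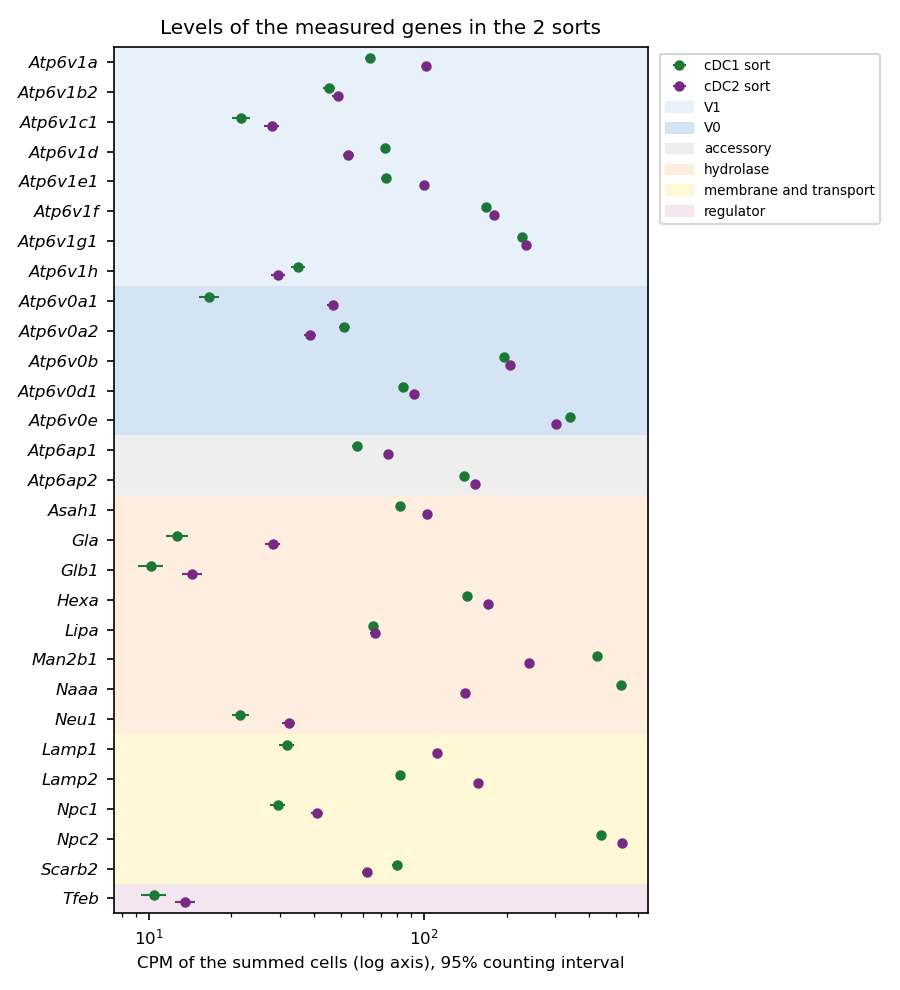
CPM of each of the 29 measured genes in the summed cDC1 sort (green) and cDC2 sort (purple), on a log axis, with 95% counting intervals; background bands mark the role. Most pump subunits of the 2 libraries lie close together, while Atp6v0a1, Gla, Lamp1, Lamp2, Man2b1 and Naaa stand furthest apart.

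Between the sorts, the pump as a whole was nearly level and the hydrolases were not. The 22 pump subunits summed to 1402 CPM in the cDC1 and 1471 CPM in the cDC2 sort, a ratio of 1.05 (1.04 to 1.06). The 8 hydrolases summed to 1285 CPM in the cDC1 sort and 797 CPM in the cDC2 sort, 1.61-fold higher in cDC1 (1.59 to 1.64). That sum rested on a pair of genes, Naaa and Man2b1. Without them the other 6 hydrolases summed to 336 and 415 CPM, 1.24-fold higher in the cDC2 sort (1.21 to 1.27).

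Of the 29 measured members, 3 exceeded 2-fold toward the cDC2 sort (all measured genes: 7.79% of 6610) and 1 was at least 2-fold lower (all measured genes: 5.51%). The median log2 ratio of cDC2 over cDC1 was 0.10 for the pump subunits and 0.29 for the hydrolases, against 0.05 for all measured genes. Lamp1, which encodes an abundant glycoprotein of the lysosomal membrane and lies on chromosome 8, 13159161 to 13175338 (GRCm38), was at 31.7 CPM in the cDC1 sort and 112 CPM in the cDC2 sort, 3.52-fold higher (3.29 to 3.76). Atp6v0a1, 1 of the genes of the proton-conducting a subunit, stood at 16.6 and 46.8 CPM, 2.82-fold higher (2.57 to 3.11). Gla, which encodes the alpha-galactosidase that clears globotriaosylceramide, stood at 12.7 and 28.2 CPM, 2.22-fold higher (1.99 to 2.48).

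Naaa was the gene that differed in the opposite direction. It encodes an acid amidase of N-acylethanolamines such as palmitoylethanolamide and lies on chromosome 5, 92257659 to 92278170. Naaa stood at 523 CPM in the cDC1 sort, where it was the highest of all 40 members, and at 141 CPM in the cDC2 sort, 3.70-fold lower (3.59 to 3.81). Man2b1, the lysosomal alpha-mannosidase gene, stood at 426 and 240.3 CPM and was 1.77-fold higher in the cDC1 sort (1.73 to 1.82), short of the 2-fold rule. Lamp2, partner of Lamp1 in the membrane, came close to the rule from the other side, at 82.1 and 157 CPM (1.92-fold higher in cDC2, 1.83 to 2.00).

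Among the remaining pump genes, the catalytic gene Atp6v1a differed by the most, 1.59-fold higher in the cDC2 sort (1.51 to 1.68). The rotor shaft gene Atp6v1d was 1.36-fold higher in the cDC1 sort (1.28 to 1.44), and Atp6v0a2 was 1.33-fold higher there (1.24 to 1.43; 51.5 against 38.6 CPM). The acid lipase gene Lipa was level, at 65.7 and 66.3 CPM. Acid ceramidase (Asah1), sialidase (Neu1), beta-galactosidase (Glb1) and the hexosaminidase alpha chain (Hexa) were between 1.196-fold and 1.499-fold higher in the cDC2 sort. Glb1 shares its strand with the overlapping gene Tmppe, and its level of 10.2 and 14.4 CPM is uncertain.

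The contrast was as large among other cells alone. Of 29 members measured there, 3 were 2-fold higher in the cDC2 sort (all measured genes: 7.66% of 6556) and 1 was 2-fold lower (all measured genes: 5.77%), the same 4 genes as over all cells. Lamp1 was 3.90-fold, Atp6v0a1 2.96-fold and Gla 2.33-fold higher in the cDC2 sort, and Naaa was 4.10-fold lower. Among mature cells it was smaller. The hydrolase sum was 410.4 CPM in mature cDC1-sorted and 422 CPM in mature cDC2-sorted cells (ratio 1.03, 0.898 to 1.18), and Lamp1 stood at 278 and 314 CPM (ratio 1.13, 0.961 to 1.32). Man2b1 stood at 104 and 111 CPM there. Of 26 members measured in mature cells, 0 were 2-fold higher in the cDC2 sort (all measured genes: 8.74% of 4922) and 2 were 2-fold lower (all measured genes: 4.41%), Naaa at 97.6 against 47.4 CPM and Gla at 29.6 against 14.4 CPM. The Gla values rest on 34 and 14 UMIs.

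Mature cells had pump levels a little above those of other cells, and hydrolase levels well below them. In the cDC1 sort the pump sum was 1683 CPM in mature and 1389.5 CPM in other cells, 1.21-fold higher (1.16 to 1.27), and the hydrolase sum was 410.4 against 1315 CPM, 3.204-fold lower (2.93 to 3.52). In the cDC2 sort the pump sum was 1671 against 1441 CPM, 1.16-fold higher (1.10 to 1.22), and the hydrolase sum 422 against 767 CPM, 1.82-fold lower (1.65 to 2.01). Naaa and Man2b1 gave much of that difference, and the other 6 hydrolases were together 1.61-fold lower (1.42 to 1.84) in the cDC1 sort and 1.49-fold lower (1.32 to 1.69) in the cDC2 sort. The median cell showed the same order: hydrolases at 265 CPM in mature and 1237 CPM in other cells of the cDC1 sort, and at 314 and 716 CPM in the cDC2 sort. Of 14 macrophage and monocyte markers, 12 were lower in mature than in other cells of the cDC1 sort, where the list summed to 232 against 1360.5 CPM, nearly all of it Lyz2 (226 against 1332 CPM). Among cDC2-sorted cells 10 of the 14 were higher in mature cells and 4 lower. Lyz2 was lower there (367 against 733 CPM), and the list without it summed to 201 against 129 CPM. Of the 74 mature cells of the cDC2 sort, 4 also reached the counts of the macrophage panel, and an alternative left them out (70 cells). The hydrolase sum then stayed lower in mature cells and within its counting interval. At 2-fold, 2 members were lower without these cells (all measured genes: 9.08%), against 3 with them (6.75%). Beyond that alternative, the part of these markers in the hydrolase difference was not tested.

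In the cDC1 sort 27 members were measured at the floor of 20 CPM used for states. Of these, 4 were at least 2-fold higher in mature cells (all measured genes: 13.9% of 4953) and 4 at least 2-fold lower (all measured genes: 13.1%). In the cDC2 sort 1 of 27 was higher (all measured genes: 10.2% of 4991) and 3 were lower (all measured genes: 6.75%). The shares of the 27 called were thus near or below the background in the higher direction, and near or above it in the lower direction. The median log2 ratio was 0.18 for pump subunits and -0.79 for hydrolases in the cDC1 sort (all measured genes -0.02), and 0.16 and -0.62 in the cDC2 sort (all measured genes 0.06).

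Lamp1 was the member furthest above other cells. It stood at 278 CPM in mature and 21.3 CPM in other cells of the cDC1 sort, 13.03-fold higher (11.4 to 14.9), and at 314 against 83.1 CPM in the cDC2 sort, 3.77-fold higher (3.34 to 4.25). With every cell thinned to 3000 UMIs, 51.8% of mature cells of the cDC1 sort had a Lamp1 UMI (unthinned 79.8%), against 5.44% of other cells (unthinned 18.4%). In the cDC2 sort the thinned shares were 55.6% and 21.1% (unthinned 83.8% and 53.1%). Thinning left out 1 mature and 15 other cells of the cDC1 sort, and 2 and 46 of the cDC2 sort. Scgb1a1 is a club cell gene that dendritic cells lack, and its UMIs in these cells stand for free RNA. It was seen in 13.2% of thinned other cells of the cDC1 sort and 8.58% of those of the cDC2 sort. That share is for 1 gene and sets no level for Lamp1. The part of free RNA in the 5.44% of Lamp1 in other cDC1 cells was not tested. The median mature cell had 12404 UMIs in the cDC1 sort, the median other cell 12863, and in the cDC2 sort the medians were 10803.5 and 12562.

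Npc2 was also higher in mature cells, but by more in the cDC1 sort. It stood at 1000.3 against 418 CPM there, 2.39-fold higher (2.25 to 2.54), and at 754 against 507 CPM in the cDC2 sort, 1.49-fold (1.38 to 1.60). Its partner Npc1, which exports cholesterol through the lysosomal membrane, went the opposite way. Npc1 stood at 13.9 against 29.1 CPM in the cDC1 sort, 2.09-fold lower (1.28 to 3.67), and at 19.6 against 40.3 CPM in the cDC2 sort, 2.06-fold lower (1.31 to 3.43). The Npc1 values rest on 16 and 19 UMIs in mature cells, and with a gate at 2 UMIs of Fscn1 the cDC2 difference was 1.31-fold.

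Naaa and Man2b1 were the hydrolases furthest below. Naaa stood at 97.6 CPM in mature and 539 CPM in other cells of the cDC1 sort, 5.52-fold lower (4.59 to 6.71), and at 47.4 against 132 CPM in the cDC2 sort, 2.77-fold lower (2.08 to 3.79). Man2b1 stood at 104 against 439 CPM, 4.23-fold lower (3.53 to 5.11), and at 111 against 244 CPM, 2.19-fold lower (1.81 to 2.67). In both libraries the mature values of Man2b1 lay within counting error of each other, while those of other cells did not. With the Fscn1 gate at 2 UMIs, Man2b1 in the cDC2 sort was 1.63-fold lower and no longer past the rule. In thinned cells Naaa was seen in 7.23% of mature and 66.3% of other cells of the cDC1 sort (unthinned 28.6% and 90.03%), and in 8.33% and 27.2% in the cDC2 sort (unthinned 28.4% and 60.8%). The thinned shares of Naaa in mature cells were below that of Scgb1a1 in the same cells, 15.7% and 12.5%, and the part of free RNA in them was not tested.

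The remaining hydrolases differed less between the states. Hexa stood at 61.9 against 146 CPM in the cDC1 sort (2.35-fold lower, 1.86 to 3.02) and at 105 against 162 CPM in the cDC2 sort (1.54-fold lower, 1.27 to 1.89). Asah1 was 1.73-fold and 1.42-fold lower and Lipa 1.56-fold and 1.39-fold lower, each with an interval that excluded 1. Neu1 was level in both, with ratios of 1.03 (0.659 to 1.53) and 0.911 (0.602 to 1.32). Gla was the exception that split the sorts, at 29.6 against 12.0 CPM in the cDC1 sort (2.47-fold higher, 1.68 to 3.504) and 14.4 against 28.04 CPM in the cDC2 sort (1.94-fold lower, 1.15 to 3.57). The difference between those 2 ratios was not tested.

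Within the pump, subunits of the same sector did not differ alike. Atp6v1f was 1.48-fold higher in mature cells of the cDC1 sort (1.31 to 1.67; 244 against 165 CPM) and 1.37-fold higher in the cDC2 sort (1.20 to 1.56; 243 against 178 CPM). Atp6v1b2 was 1.48-fold and 1.60-fold higher. Atp6v1a was 1.67-fold higher in the cDC1 sort (1.37 to 2.01) and level in the cDC2 sort (1.007, 0.813 to 1.23), while Atp6v1h, a regulatory subunit of V1, was level in the cDC1 sort (1.05) and 1.71-fold higher in the cDC2 sort (1.25 to 2.29). Atp6v1g1, among the highest of the V1 genes, was level in both (0.979 and 1.09). The accessory gene Atp6ap2 was slightly lower in both, at 118 against 141 CPM and 119 against 156 CPM. Among the 27 members measured in both libraries, the intervals of Atp6v1b2, Atp6v1f, Atp6v0a1, Lamp1 and Npc2 lay above 1 in both. Those of Atp6v0a2, Atp6ap2, Hexa, Lipa, Asah1, Man2b1, Naaa and Npc1 lay below 1 in both. The share of all measured genes with such intervals in both sorts was not computed, so the number of these members has no background. With all members pooled, the shares within each sort were near those of all measured genes, except for intervals below 1 in the cDC2 sort. In the cDC1 sort 33.3% of the members and 30.4% of all genes had an interval above 1, and 29.6% and 31.8% had one below. For the cDC2 sort the shares were 25.9% and 27.9% above, and 37.0% and 23.1% below. The pooled shares join unlike groups. Of 7 measured hydrolases, 5 (71.4%) in the cDC1 sort and 6 (85.7%) in the cDC2 sort had an interval below 1, and 1 and 0 had one above. Of 13 measured pump subunits, 6 (46.2%) and 5 (38.5%) had an interval above 1, and 1 (7.69%) in each sort had one below.

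**Figure D2:**
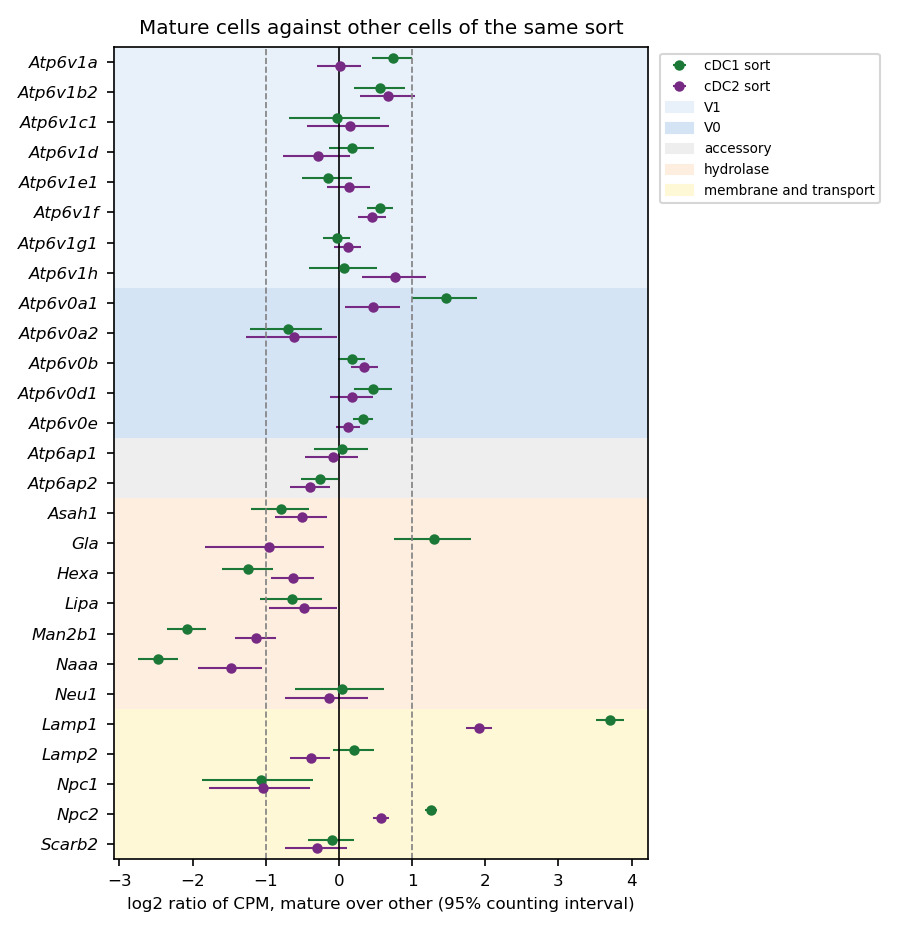
Log2 ratio of CPM in mature over other cells for each gene measured at 20 CPM, in the cDC1 sort (green) and the cDC2 sort (purple), with 95% counting intervals; dashed lines mark 2-fold. Most pump subunits lie within 2-fold, with Atp6v0a1 in the cDC1 sort the exception, Lamp1 lies furthest to the right in both libraries, and Naaa and Man2b1 lie furthest to the left.

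The genes of the a subunit differed in opposite directions. Atp6v0a1, which lies on chromosome 11, 101009452 to 101063719, stood at 42.7 CPM in mature and 15.5 CPM in other cells of the cDC1 sort, 2.75-fold higher (2.01 to 3.69), and at 64.0 against 46.1 CPM in the cDC2 sort, 1.39-fold higher (1.06 to 1.79). Atp6v0a2, chromosome 5, 124628576 to 124724455, stood at 32.2 against 52.3 CPM and at 23.7 against 36.3 CPM, so that it was 1.62-fold (1.17 to 2.31) and 1.53-fold (1.014 to 2.42) lower. With Tcirg1, the gene of the a3 isoform, which the symbol rule does not take in, the 3 genes gave 104 UMIs in mature cells of the cDC1 sort and 115 in those of the cDC2 sort. Atp6v0a1 supplied 16.6% of the UMIs of the 3 genes in other cells of the cDC1 sort (15.3 to 17.9) and 47.1% in mature cells (37.2 to 57.2). In the cDC2 sort its share was 38.4% in other cells (37.0 to 39.9) and 53.9% in mature cells (44.4 to 63.2). Atp6v0a2 was the leading isoform of other cDC1 cells at 55.7%, and Tcirg1 and Atp6v0a2 shared the lead in macrophage-panel cells of the cDC2 sort at 36.8% and 37.9%. For the d subunit, Atp6v0d1 gave at least 95.8% of the UMIs in each state of each library.

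**Figure D3:**
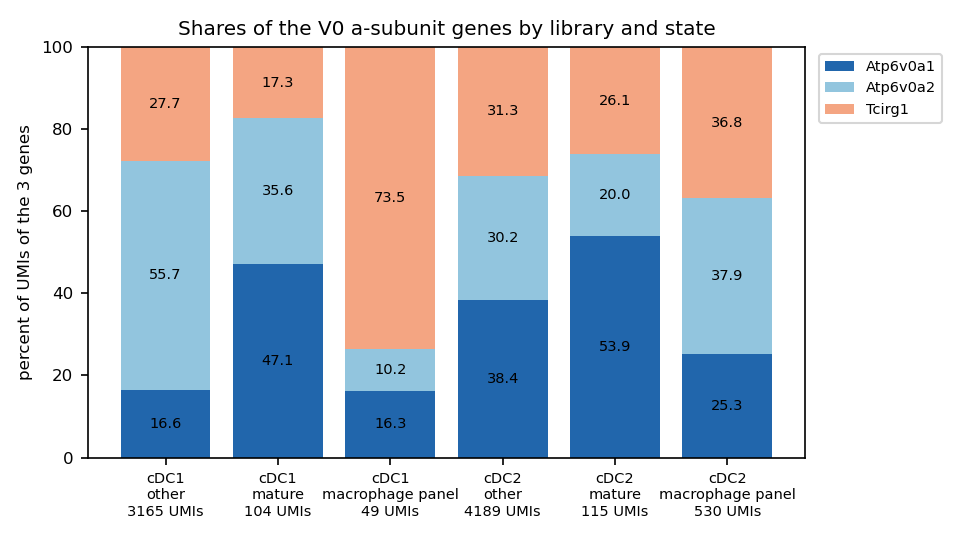
Share of the UMIs of Atp6v0a1, Atp6v0a2 and Tcirg1 that each gene gave, in percent, for the 3 states of each library, with the UMIs behind each bar below it. Atp6v0a1 holds the largest share in mature cells of both libraries (47.1% and 53.9%) and Atp6v0a2 in other cells of the cDC1 sort (55.7%); the bar of the 12 macrophage-panel cells of the cDC1 sort rests on 49 UMIs.

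Many cells under the Fscn1 gate carried Ccr7, and the other cells were therefore also divided by Ccr7 count, a division chosen after the data were seen. Cells gated as other kinds were left out of it. In the cDC1 sort Lamp1 stood at 16.3 CPM in the 2082 cells without Ccr7, 25.5 CPM at 1 to 4 UMIs, 46.5 CPM at 5 to 19 UMIs, 96.2 CPM in the 64 cells at 20 or more, and 278 CPM in mature cells. In the cDC2 sort it ran the other way below the gate, at 99.0, 88.8, 69.5 and 61.9 CPM, before 314 CPM in mature cells. The summed Lamp1 level thus stepped with Ccr7 in cDC1-sorted cells. Among these groups of cDC2-sorted cells it was above 99.0 CPM only past the Fscn1 gate. Single cells ranged more widely, and the 75th percentile of Lamp1 in other cells of the cDC2 sort was 122 CPM.

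Naaa and Man2b1 were lower at higher Ccr7 in both sorts. Naaa stood at 585, 447, 145 and 76.4 CPM in the cDC1 sort, then 97.6 CPM in mature cells, and at 188, 148, 93.4, 74.8 and 47.4 CPM in the cDC2 sort. Man2b1 stood at 462, 395, 259, 192 and 104 CPM in the cDC1 sort and at 282, 259, 219, 191 and 111 CPM in the cDC2 sort. At 20 or more Ccr7 UMIs the sorts were level for both genes, though they stood far apart in cells without Ccr7. The pump sum stood at 1378, 1367, 1477 and 1706 CPM over these strata in the cDC1 sort, and at 1491, 1434, 1398 and 1406 CPM in the cDC2 sort, against 1671 CPM in its mature cells. Median UMIs per cell ran from 12723 to 14323.5 and from 11711.5 to 14330 over the strata. Cycling and non-cycling other cells of the cDC1 sort were level, with pump sums of 1389.96 and 1390.4 CPM and hydrolase sums of 1322 and 1317 CPM.

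**Figure D4:**
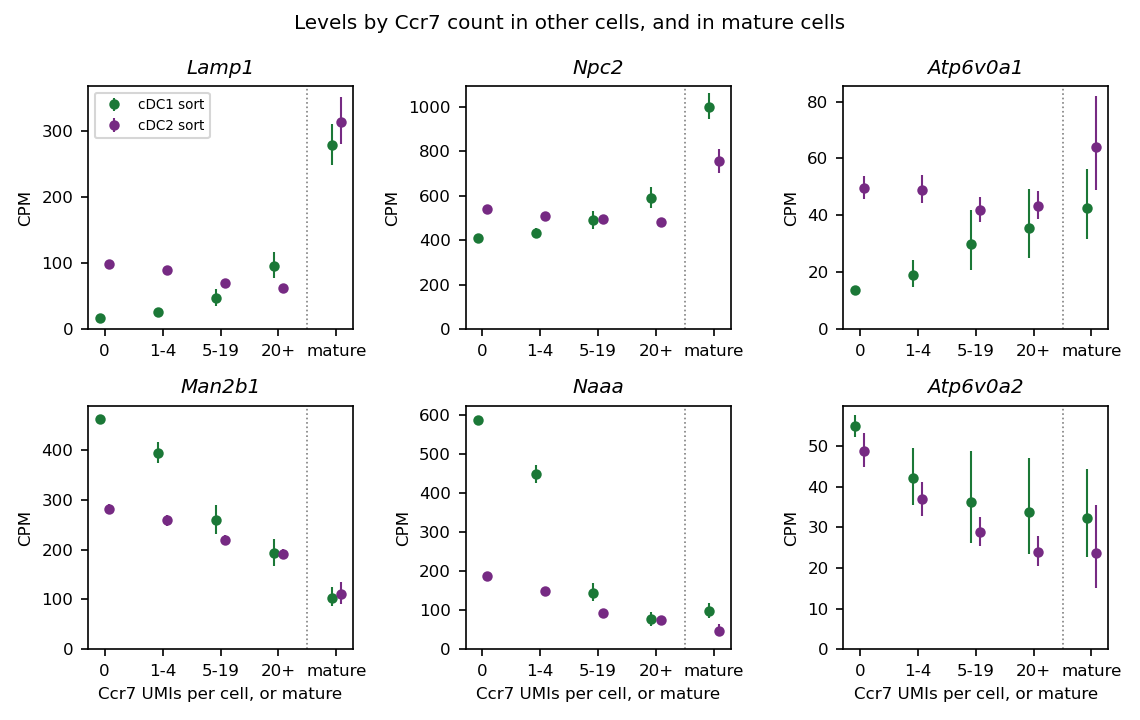
CPM of 6 genes in other cells grouped by Ccr7 UMIs per cell and in mature cells, for the cDC1 sort (green) and the cDC2 sort (purple), each axis starting at 0, with 95% counting intervals. Naaa and Man2b1 step down along the Ccr7 groups in both libraries, whereas Lamp1 steps up in the cDC1 sort (16.3 to 96.2 CPM) and down in the cDC2 sort (99.0 to 61.9 CPM) before the mature cells.

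Macrophage-panel cells of the cDC2 sort had more of both groups. The hydrolase sum was 1320.3 CPM against 767 CPM in other cells, 1.72-fold higher (1.66 to 1.78), and the pump sum 1785 against 1441 CPM, 1.24-fold higher (1.20 to 1.28). Of 27 measured members, 5 were at least 2-fold higher (all measured genes: 9.2% of 5106) and 0 were 2-fold lower (all measured genes: 2.92%). The median log2 ratio was 0.78 for hydrolases and 0.41 for pump subunits, against 0.19 for all measured genes. With the median gene set to no change, the hydrolase sum was 0.59 higher on the log2 scale and the pump sum 0.11 higher. The 14 macrophage and monocyte markers, which include the panel, were all seen and summed to 19590.8 CPM, against 862 CPM in other cells. The cells carried a median of 16049.5 UMIs, against 12562 in other cells, and the part of depth in the result was not tested.

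Lamp1 led here as well, at 409 against 83.1 CPM, 4.92-fold higher (4.58 to 5.27). The acid lipase gene Lipa, which splits cholesteryl esters taken up in lipoproteins, stood at 193 against 57.2 CPM, 3.37-fold higher (3.06 to 3.72), and Naaa at 302 against 132 CPM, 2.30-fold higher (2.13 to 2.47). Hexa (318 against 162 CPM, 1.96-fold) and Asah1 (1.71-fold) fell short of the rule, and Man2b1 was level at 244 CPM in each. In the pump, Atp6v1b2 stood at 130 against 42.0 CPM, 3.09-fold higher (2.74 to 3.47), and Atp6v0a2 at 74.4 against 36.3 CPM, 2.05-fold higher (1.76 to 2.38). Atp6v1e1 was 1.74-fold higher, Atp6v0e was level (1.06), and Atp6v1g1 was slightly lower (0.856, 0.783 to 0.933). Naaa and Atp6v0a2 lay within 2-fold under some alternative gates and scalings. The 12 macrophage-panel cells of the cDC1 sort, given as values only, stood at 364 CPM of Lamp1, 286 CPM of Lipa, 296 CPM of Naaa and 984 CPM of Npc2.

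**Figure D5:**
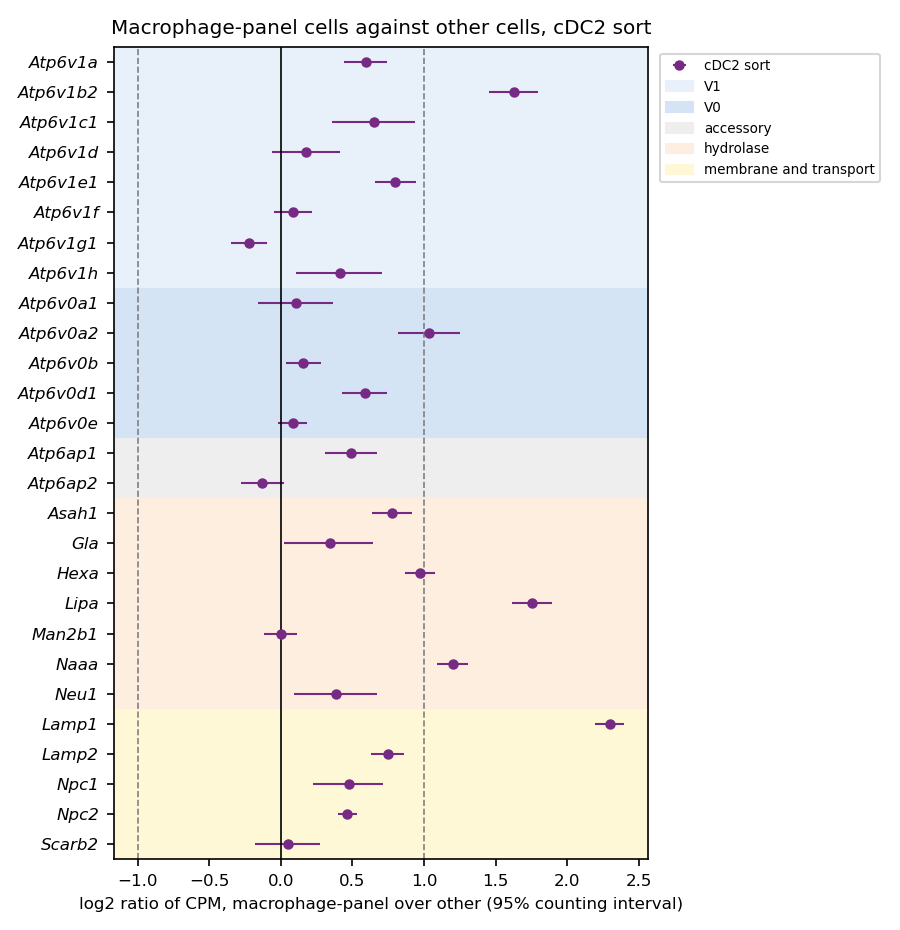
Log2 ratio of CPM in macrophage-panel cells over other cells of the cDC2 sort for each gene measured at 20 CPM, with 95% counting intervals; dashed lines mark 2-fold. Lamp1, Lipa, Atp6v1b2, Naaa and Atp6v0a2 lie past 2-fold, and Atp6v1g1 lies furthest to the left.

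Further genes of the same organelle were taken from 3 lists: 17 pump partners (assembly factors, chloride carriers, regulators), 37 other lysosomal hydrolases and 38 other lysosomal membrane and regulator genes. The shares of all measured genes called in each comparison are given again beside the counts, and counts near those shares say nothing particular of a list. Between the sorts (all measured genes: 7.79% higher and 5.51% lower in cDC2), 1 of 10 measured partners was higher in the cDC2 sort (Clcn5) and 1 lower, Ncoa7, which binds the pump and stood at 161 CPM in the cDC1 and 28.8 CPM in the cDC2 sort. Of 28 measured hydrolases, 9 were higher in the cDC2 sort, led by cathepsin A (Ctsa, 8.35 and 155 CPM, 18.5-fold), Tpp1 (5.12-fold) and cathepsin D (Ctsd, 4.76-fold), and 2 were lower, Ppt1 (765 and 75.6 CPM) and Galc. Of 29 membrane and regulator genes, 1 was higher (Lamtor4, 2.01-fold) and 4 were lower, among them Igf2r at 61.1 CPM in the cDC1 and 1.29 CPM in the cDC2 sort.

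In mature cells (all measured genes: 13.9% higher and 13.1% lower in the cDC1 sort, 10.2% and 6.75% in the cDC2 sort), 2 of 7 measured partners were higher in each library and 0 lower. They were Rogdi, whose protein belongs to the complex that joins V1 to V0, at 291 against 37.8 CPM (7.70-fold, 6.80 to 8.69) and 216 against 31.6 CPM (6.83-fold, 5.86 to 7.93), and Ncoa7 (2.91-fold and 4.14-fold). Of the other hydrolases, 2 of 20 were higher and 6 lower in the cDC1 sort, and 0 of 23 higher and 3 lower in the cDC2 sort. Their median log2 ratio was -0.20 in the cDC1 sort and -0.53 in the cDC2 sort, against -0.79 and -0.62 for the member hydrolases. At any size of difference, 8 of the 20 and 7 of the 23 were above other cells, and 12 and 16 were below. Legumain (Lgmn, 5.08-fold) and cathepsin H (Ctsh, 2.70-fold) were higher in the cDC1 sort, while the arylsulfatase gene Arsb was lower in both (4.84-fold and 2.83-fold). Of the membrane and regulator genes, 4 of 22 were higher and 5 lower in the cDC1 sort, and 2 of 23 and 5 in the cDC2 sort. The tetraspanin gene Cd63 stood at 849 against 19.7 CPM (43.1-fold) and 530.2 against 20.003 CPM (26.5-fold), and Laptm4b was 17.6-fold and 31.5-fold higher. Lamtor4 and the transporter gene Cln3 were lower in both.

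In macrophage-panel cells (all measured genes: 9.2% higher and 2.92% lower), 2 of 10 partners were higher and 0 lower: the lysosomal chloride carrier gene Clcn7 (3.02-fold) and that of its beta subunit, Ostm1 (2.30-fold). Of the other hydrolases, 9 of 24 were higher and 0 lower, led by Ctsd (329 against 41.6 CPM, 7.90-fold), Pla2g15 (6.41-fold) and Ctsc (2.76-fold). Of 24 membrane and regulator genes, 6 were higher and 0 lower, led by the metal transporter gene Slc11a1 (10.0-fold) and Mitf (9.89-fold), a transcription factor of the same family as Tfeb.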

How the data were processed

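For each sort the deposited file is a matrix of unnormalised UMI counts, genes by barcodes. Cell Ranger 3.2 and the mm10 genome were used, per the submitters' processing notes, whereas software version 3.0.2 is written in the matrices, per the file headers. Seurat is named without a role. Annotation release, barcode selection and use of strand are not stated in these sources. Here, cells were kept at 500 genes or more, 1000 UMIs or more and at most 10% mitochondrial UMIs, which removed 365 (cDC1) and 210 (cDC2) barcodes. Doublets were left in, and an alternative dropped 7 and 11 cells above 3 times the median UMIs. UMIs were summed over cells, scaled to CPM of the cells' total and given exact Poisson intervals. Ratios have exact conditional binomial intervals and shares exact binomial ones, at the 95% level. A gene was measured at 10 CPM in a library, or 20 CPM in a state, in at least 1 of the groups compared, and called at 2-fold. States with under 50 cells were not compared. A gene of the macrophage panel is not reported here. Counts of 0 were read against 3 counts.

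The members, lists, gates and tests were chosen with earlier results of these data known. From each further list, the text names at most the 3 largest and 3 smallest ratios of a comparison. Ifi30, on the list of further hydrolases, had no matching row and is not analysed here. Coordinates and overlaps are from GENCODE vM21 (GRCm38, the assembly also called mm10), in which the IDs of all 40 members were found. Lamp1, Hexa, Atp6v1b2, Atp6v1e1, Atp6v1h and Npc1, among others, overlap genes on the opposite strand. Promoters come from RefSeq on GRCm38.p6, where 9 members had no entry. Code was tested on simulated data. Python 3.11.15, numpy 2.4.6, scipy 1.17.1 and pandas 2.3.3 were used.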

Additional observations from a re-analysis of the deposited data

Results flagged for a closer look

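Gla, which encodes alpha-galactosidase A, was the gene whose ratio of mature to other cells lay on opposite sides of 1 in the sorts, with both counting intervals excluding 1. The ratio was 2.47 in the cDC1 sort (1.68 to 3.504) and 0.515 in the cDC2 sort (0.2805 to 0.868). Over the alternative settings the ratio ran from 2.23 to 2.64 in the cDC1 sort and from 0.395 to 0.785 in the cDC2 sort. It rests on 34 UMIs in 84 mature cells and 14 UMIs in 74 mature cells. The difference was not tested, since each sort has 1 library.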

How the results depend on the processing

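No difference past 2-fold reversed under any alternative, and the pump and hydrolase sums kept their sign in all of them. No paired analysis was possible because each sort has 1 library and no result comes from a test. Among called members, Npc1 in mature cells of both sorts, Man2b1 in mature cells of the cDC2 sort, and Atp6v0a2 and Naaa in macrophage-panel cells did not stay past 2-fold throughout. Their ranges were 1.97 to 2.50-fold and 1.31 to 2.15-fold lower for Npc1, 1.63 to 3.11-fold lower for Man2b1, and 1.65 to 2.25-fold and 1.97 to 2.53-fold higher for Atp6v0a2 and Naaa. In mature cells Lamp1 ranged from 11.8 to 14.3-fold in the cDC1 sort and 2.97 to 4.58-fold in the cDC2 sort. Counts of called members changed by over 1.5 times as follows, with the share of all measured genes called the same way in brackets. At a floor of 5 CPM, 5 members were lower in mature cDC2 cells (9.44%; main 3). At 50 CPM, 1 was higher between sorts (8.54%; main 3) and 2 in mature cDC1 cells (15.8%; main 4). At 1.5-fold, 5 were higher (14.3%) and 2 lower (11.1%) between sorts, 7 lower (24.7%) in mature cDC1 cells, 3 higher (20.2%) and 6 lower (16.1%) in mature cDC2 cells, and 12 higher (21.7%) in macrophage-panel cells. With the Fscn1 gate at 2 UMIs, 1 was lower in mature cDC2 cells (3.003%). With a gate on C1qa, C1qb and C1qc, 3 were higher in panel cells (4.998%; main 5). With Cacnb3 also required, an alternative chosen after seeing the data, 2 were higher in mature cDC2 cells (12.2%; main 1). Summed log2 ratios left their counting interval as follows. With the mean over cells, hydrolases were at -1.91 and -1.11 in mature cDC1 and cDC2 cells and 0.84 in panel cells. With the median ratio of genes as the scale, pump and hydrolases were at 0.021 and -0.74 between sorts and 0.11 and 0.59 in panel cells. Without mitochondrial and ribosomal protein genes in the total they were at 0.039 and -0.72 between sorts, 0.13 and -1.83 in mature cDC1 cells, and 0.20 and 0.67 in panel cells. That scale moved the median of all genes in mature cDC1 cells from -0.02 to -0.21. Among other cells only, hydrolases were at -0.78 between sorts. They were at -0.57 in mature cDC2 cells with the Fscn1 gate at 2 UMIs, and at -1.87 in mature cDC1 cells with cells thinned to 3000 UMIs before gating. In panel cells, pump and hydrolases were at 0.25 and 0.68 with the panel gate at 5 UMIs and at 0.24 and 0.59 with the C1q gate, and hydrolases were at 0.88 with the gate at 20 UMIs. The causes were not tested. Depth limits the small states: in mature cells Npc1 rests on 16 and 19 UMIs and Gla on 34 and 14, and the 12 panel cells of the cDC1 sort hold 206310 UMIs in all.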
